A study of Homo sapiens with 6 samples.

Results

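The genes of protein lipoylation, the pyruvate dehydrogenase complex and the tricarboxylic acid (TCA) cycle were described in MDA-MB-231 cells after disulfiram with copper (DSF/Cu). The 36 genes were chosen by name, by their place in these pathways, out of 58825 genes in the deposited table, and all 36 were found in it once. MDA-MB-231 is an established human cell line of triple-negative breast cancer. It was grown in RPMI medium with serum and held for 24 h in vehicle (DMSO, 3 libraries) or in DSF/Cu at 0.2 µM (3 libraries), and each library was made from the pooled cells of 3 wells. Disulfiram is a drug against alcohol dependence whose metabolite binds copper. With no library of either agent by itself, the drug and the metal cannot be told apart. Whether the repeats were separate cultures is not said in the labels, and the p-values then reflect only library-to-library spread, which may be technical.

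Lipoic acid is a sulfur-containing cofactor bound to a lysine of a few mitochondrial enzymes: the dehydrogenase complexes for pyruvate, 2-oxoglutarate and branched-chain 2-oxoacids, and the glycine cleavage system. The ferredoxin FDX1 and the lipoyl synthase LIAS are needed to make it. LIPT2 loads its precursor, octanoic acid, and LIPT1 transfers the lipoyl group. Copper carried into mitochondria can bind lipoylated proteins, DLAT above all, and this binding is tied to a form of cell death that needs *FDX1*. The pyruvate dehydrogenase complex feeds acetyl-CoA into the TCA cycle and is switched off by the kinases PDK1 to PDK4 and on by the phosphatases PDP1 and PDP2.

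Total counts per library ran from 55563223 to 70883177, and DMSO and DSF/Cu libraries lay apart on the leading principal component, with 56.2% of the variance of log2 CPM (library-scaled counts, with TMM factors). The labelled cell type was checked on marker genes. The summed level of 4 mesenchymal genes of this line (*VIM*, *CD44*, *AXL*, *MSN*) was 1029 to 1073 FPKM (fragments scaled by gene length and library size) in DMSO and 858.5 to 913.3 FPKM after DSF/Cu. That of 6 luminal epithelial genes was 3.08 to 3.85 FPKM and 2.31 to 2.6 FPKM. The genes within these sums did not move together. *VIM* (log2 change -0.27) and *AXL* (-0.76) were called lowered, *MSN* was called raised (0.57) and *CD44* was not called (0.2). Of the luminal genes, *EPCAM* was called lowered (-0.7). *ESR1* (1.38), *FOXA1* (0.75), *GATA3* (0.29) and *PGR* (-0.77) were not called, and *CDH1* was too low to test. Sums for immune, endothelial, adipocyte and fibroblast genes lay at or below 1.14 FPKM in every library, with *CD3E*, *CDH5*, *ADIPOQ*, *LEP*, *DCN* and *LUM* at 0 counts. The immune sum was higher after DSF/Cu (0.664 to 1.14 FPKM) than in DMSO (0.0625 to 0.306 FPKM), mostly through *CD14*, which was called raised (8 to 30 and 67 to 127 counts, adjusted p = 0.0106). The adipocyte sum (0.0135 to 0.0723 FPKM in DMSO and 0.0857 to 0.336 FPKM after DSF/Cu) and the fibroblast sum (0.0004 to 0.0946 and 0.148 to 0.176 FPKM) were also higher without overlap. Both lay near the floor and rested mostly on 1 gene each. *FABP4* held 9, 0 and 0 counts in DMSO and 9, 35 and 16 after DSF/Cu, too few to be tested, while *PLIN1* went the other way (0, 4 and 8, then 0, 0 and 0). *PDGFRB* held 0, 44 and 18 counts and then 82, 76 and 80, and was not called (edgeR adjusted p = 0.161). Groups did not overlap for 51.2% of all genes tested.

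After DSF/Cu, 3 of the pathway genes were raised and 7 lowered, and none changed as much as 2-fold. The pyruvate dehydrogenase kinase gene *PDK4* rose 1.91-fold, and the isocitrate dehydrogenase subunit gene *IDH3B* rose 1.44-fold. The gene of a branched-chain dehydrogenase subunit, *BCKDHA*, rose 1.41-fold, while *BCKDHB*, the gene of its partner subunit, was 1.55-fold lower. The 2-oxoglutarate dehydrogenase gene *OGDH* was 1.48-fold lower and the fumarase gene *FH* 1.44-fold lower. Smaller falls were found for *FDX1*, *SUCLG2*, *MDH2* and *GLUD1*. Of the pyruvate dehydrogenase subunit genes, none of 5 passed the test, against 35.2% of all genes tested. Before adjustment 3 of the 5 had an edgeR p under 0.05 (60%, against 44.7% of all genes tested), so they are not shown to be unchanged.

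These calls are from edgeR's quasi-likelihood test at a Benjamini-Hochberg adjusted p under 0.05 over all 18229 genes that passed the count filter. The filter kept 35 of the 36 genes and left out *GLDC*. The 10 calls were 28.6% of the 35 genes, against 35.2% of all genes tested. Raised genes were 8.57% against 18.5% of all genes, and lowered genes 20% against 16.8%. The DMSO and DSF/Cu libraries did not overlap for 19 genes (54.3%), against 51.2% of all genes tested. The median log2 change was -0.155, against 0.002 over all genes, and the median absolute log2 change was 0.204 against 0.414. An absolute log2 change of at least 1 was reached by 0 of the 35 genes in edgeR's fit, against 16.2% of all genes. Without adjustment, 15 genes (42.9%) had a p under 0.05, against 44.7% of all genes. On this scale the share of called genes was not above the background, and the changes were mostly small.

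The split depended on scaling. With total counts in place of TMM, the median log2 change of all genes was -0.182 and that of the pathway genes -0.344, and 2 of them were raised and 14 lowered. These calls were 45.7% of the 35 genes against 39.6% of all genes. The share lay somewhat above the background on that scale, a difference that was not tested. *BCKDHA* was not called there, and *LIAS*, *PDHA1*, *DLAT*, *CS*, *IDH2*, *IDH3A* and *MDH1* were added to the lowered genes. Fold changes below are on the TMM scale. In bulk RNA, fewer cells with a transcript and less of it per cell cannot be told apart.

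**Figure D1:**
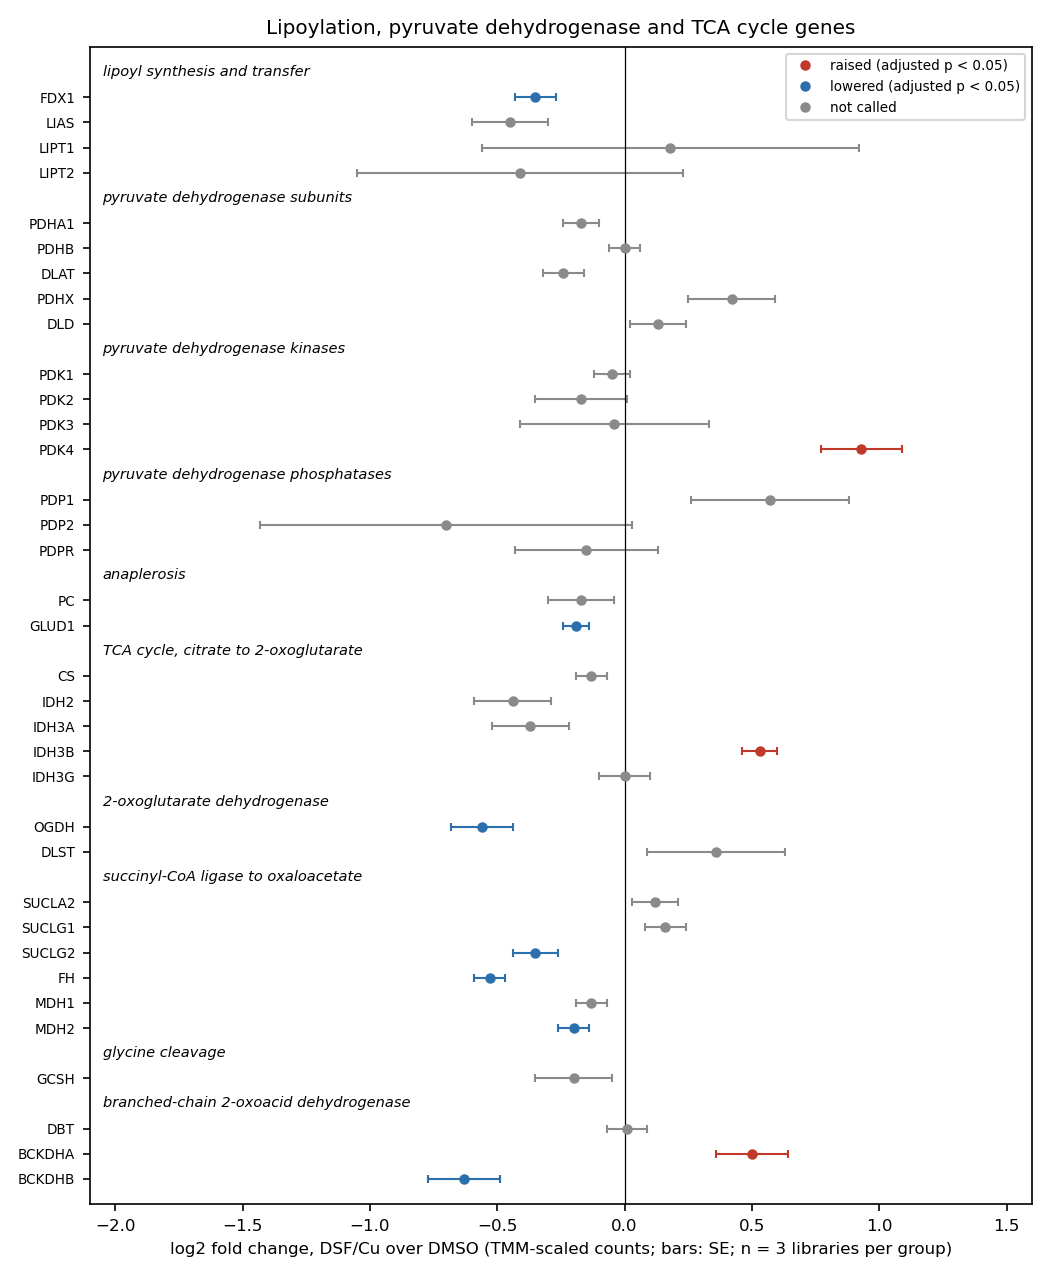
Log2 fold change of DSF/Cu over DMSO (horizontal axis, with SE, 3 libraries per group) for the 35 tested genes, grouped by role. Red genes were raised, blue genes lowered and grey genes not called; PDK4 lies farthest to the right at 0.93, and the blue genes lie between -0.63 and -0.19.

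The sequence just before the start of 4 genes is shown: *FDX1*, on which copper-dependent death relies, *PDK4* and *IDH3B*, the raised genes with the lowest adjusted p, and *FH*, the lowered gene with the lowest. Each is the 250 bases before the RefSeq start, 5′ to 3′ on the gene's strand, from RefSeq on GRCh38.p14, at chr11:110429698-110429947 (plus strand), chr7:95596517-95596766 (minus), chr20:2664217-2664466 (minus) and chr1:241519756-241520005 (minus). Capitals mark matches to the motifs searched.
FDX1: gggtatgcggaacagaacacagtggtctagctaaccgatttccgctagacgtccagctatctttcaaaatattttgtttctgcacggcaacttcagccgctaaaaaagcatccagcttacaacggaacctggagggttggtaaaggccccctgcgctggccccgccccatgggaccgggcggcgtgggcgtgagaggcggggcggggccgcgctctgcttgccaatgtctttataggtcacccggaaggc
PDK4: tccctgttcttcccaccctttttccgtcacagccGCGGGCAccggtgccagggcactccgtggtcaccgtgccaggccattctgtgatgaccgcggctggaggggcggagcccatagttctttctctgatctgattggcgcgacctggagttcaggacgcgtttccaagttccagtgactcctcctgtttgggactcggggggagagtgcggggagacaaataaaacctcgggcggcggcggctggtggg
IDH3B: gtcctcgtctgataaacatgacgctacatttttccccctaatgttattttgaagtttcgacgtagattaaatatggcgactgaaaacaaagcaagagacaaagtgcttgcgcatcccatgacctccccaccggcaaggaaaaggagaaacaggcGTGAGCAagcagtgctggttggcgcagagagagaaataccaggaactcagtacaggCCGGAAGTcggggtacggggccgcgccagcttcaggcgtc
FH: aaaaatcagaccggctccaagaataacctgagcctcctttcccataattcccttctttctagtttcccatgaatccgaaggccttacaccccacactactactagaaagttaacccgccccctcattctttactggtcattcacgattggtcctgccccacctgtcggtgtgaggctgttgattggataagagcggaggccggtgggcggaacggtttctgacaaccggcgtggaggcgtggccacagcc
The motifs, searched on both strands, were the metal response element core TGCNCNC, the antioxidant response element TGACNNNGC, a heat shock element, an NRF1 motif, an ETS motif (CCGGAAGT) and the half-site AAGGTCA of oestrogen-related receptors. *PDK4* held 1 match, to the metal response core. *IDH3B* held 2, to the metal response core and the ETS motif. The windows of *FDX1* and *FH* held no match to these letters.

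Over all of these genes, 34 of 36 had an entry, with 43 windows in all. The metal response core, a short motif, was in 67.4% of those windows and in 49.1% of all 35116 windows in the RefSeq table. The antioxidant element was in 4.65% of the genes' windows and 10.9% of all windows, the NRF1 motif in 9.3% and 5.07%, the ETS motif in 6.98% and 3.42%, and the receptor half-site in 4.65% and 3.44%. The heat shock element was in 0 of the 43 windows and in 0.441% of all. Median GC content was 64.8% in the genes' windows and 58.0% in all, and its part in these shares was not tested. A match is a description of letters and no evidence of binding.

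Levels in DMSO, compared per length as FPKM, spanned more than 3 orders of magnitude. The highest was *MDH2*, mitochondrial malate dehydrogenase, at 73.5 ± 1.85 FPKM (SD, n = 3), followed by *FH* at 69.2 ± 3.67 FPKM, and their libraries overlapped (72.1 to 75.6 and 65.1 to 72.3 FPKM). *GLUD1*, glutamate dehydrogenase, was at 58.3 ± 1.16 FPKM. *OGDH* (36.4 ± 5.85 FPKM), *IDH3B* (33.4 ± 1.46), *CS* (29.8 ± 1.32) and *DLST* (27.4 ± 7.36) followed, with neighbours within 1 SD of each other except *IDH3B* and *CS*. The pyruvate dehydrogenase subunit genes lay at 25.1 ± 1.31 FPKM (*DLD*), 23.4 ± 1.13 (*DLAT*), 22.4 ± 0.811 (*PDHB*), 18.8 ± 0.735 (*PDHA1*) and 11.8 ± 2.65 (*PDHX*). *FDX1* was at 8.68 ± 0.614 FPKM, more than 10 times the level of *LIAS* at 0.711 ± 0.105 FPKM. *PDK3* (0.0451 ± 0.0143 FPKM) was the lowest of the tested genes.

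The first group of genes makes and transfers the lipoyl group. *FDX1* (chr11:110429948-110464884, GRCh38), the mitochondrial ferredoxin, was at 28.4, 32.9 and 29.6 CPM in DMSO and at 23.5, 24.4 and 23.6 CPM after DSF/Cu. Every DSF/Cu library lay below every DMSO library. The log2 change was -0.35 ± 0.08 (SE), with an edgeR adjusted p of 0.0183. Leaving out 1 library raised the adjusted p to 0.0569 (DMSO replicate 2), 0.0505 (DSF/Cu replicate 1) or 0.052 (DSF/Cu replicate 3), which ended the call.

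*LIAS* (chr4:39458587-39479506), the lipoyl synthase, was at 8.45, 8.59 and 10.9 CPM in DMSO and 6.29, 7.38 and 6.73 CPM after DSF/Cu. The groups did not overlap, but the log2 change of -0.45 ± 0.15 (95% interval -0.81 to -0.1) did not pass (adjusted p = 0.0557). It was called under total-count scaling (-0.637, adjusted p = 0.0164) and by DESeq2 (adjusted p = 0.0124). *LIAS* shares 363 exonic bases (3.09% of its exon length) with the opposite-strand ribosomal protein gene *RPL9*, which held 30573 to 37693 counts per library against 355 to 720 for *LIAS*. The strand setting of the counting is not given in the sources used here, so reads from those bases cannot be assigned.

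The lipoyl transferase genes were low and uneven. *LIPT1*, which passes lipoyl groups to the 2-oxoacid dehydrogenases, was at 7.58, 3.01 and 2.23 CPM in DMSO and 1.7, 2.93 and 9.91 CPM after DSF/Cu, a spread within groups larger than any difference between them. Its log2 change was 0.18, with a 95% interval from -1.59 to 1.95. *LIPT2*, which loads octanoic acid, the precursor, held 19 to 86 counts per library and a log2 change of -0.41 (interval -1.94 to 1.13). Both intervals include a 2-fold change in either direction. *LIPT1* shares 262 exonic bases (11.5%) with the opposite-strand gene *MITD1* (2233 to 3879 counts, against 96 to 578 for *LIPT1*), and *LIPT2* shares 31% of its exonic bases with the opposite-strand *AP001372.2* (59 to 162 counts).

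**Figure D2:**
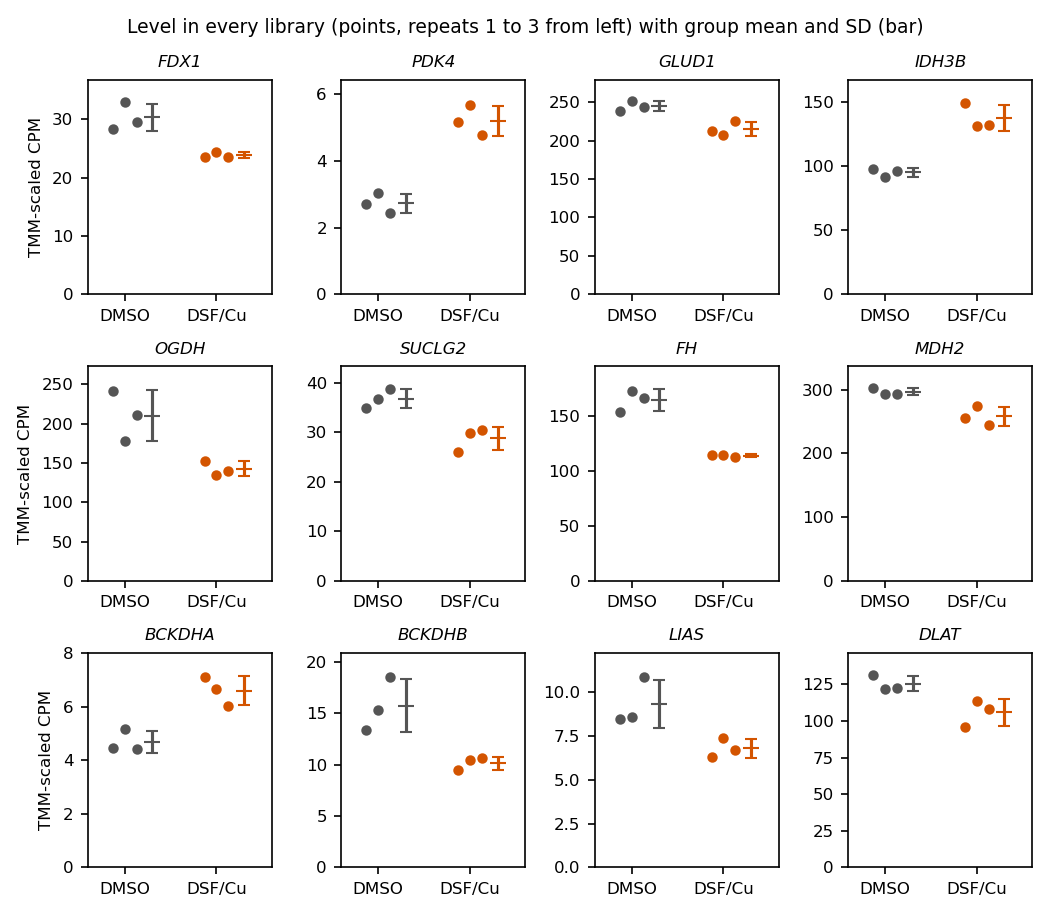
TMM-scaled CPM (vertical axes, from 0) in every library for the 10 called genes and for LIAS and DLAT, which were not called. Points are repeats 1 to 3 of DMSO (grey) and DSF/Cu (orange), and bars give the mean and SD. In all 12 panels the groups do not overlap, as for 51.2% of all genes tested. The 10 called genes are shown because they passed the test on these libraries.

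The pyruvate dehydrogenase complex is built from the decarboxylase subunits *PDHA1* and *PDHB*, the lipoylated acetyltransferase *DLAT*, the lipoylated tether *PDHX* and the lipoamide reductase *DLD*. *DLAT* (chr11:112024814-112064390) was at 131.4, 122.1 and 122.7 CPM in DMSO and 95.9, 114 and 108.2 CPM after DSF/Cu. All 3 treated libraries were lower, yet the log2 change of -0.24 ± 0.08 (interval -0.43 to -0.06) missed the threshold (adjusted p = 0.0515). It was called with upper-quartile scaling (adjusted p = 0.0479), total-count scaling (-0.426, 0.00958), DESeq2 (0.00859) and limma on FPKM of at least 1 (0.0087 with a pseudocount of 1 and 0.00906 with 0.1), and without DSF/Cu replicate 2 (0.0456).

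*PDHA1* had a log2 change of -0.17 ± 0.07, from 94 ± 4.29 to 83.4 ± 5.37 CPM, and was not called (adjusted p = 0.101). It was called lower under total-count scaling (-0.357, adjusted p = 0.00914) and by limma on FPKM of at least 1 (0.00781 and 0.00812 with pseudocounts of 1 and 0.1). *PDHB* was at 117.2 ± 4.92 CPM in DMSO and 117.4 ± 4.61 CPM after DSF/Cu, and its 95% interval for the log2 change, -0.14 to 0.14, bounds the change on both sides. *DLD*, which serves all the lipoyl-dependent complexes, was at 142.1 ± 6.98 and 155.2 ± 21.4 CPM (log2 change 0.13 ± 0.11), and was called higher only without DSF/Cu replicate 1 (adjusted p = 0.0471). *PDHX* was at 36.4, 54.8 and 57 CPM in DMSO and 66.5, 66.7 and 65.5 CPM after DSF/Cu. Its groups did not overlap, but DMSO replicate 1 stood well below the other 2, and the log2 change of 0.42 ± 0.17 did not pass (adjusted p = 0.0945). Without DMSO replicate 1 it was called (adjusted p = 0.0386), as it was by DESeq2 (0.0126).

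The kinases that phosphorylate and switch off the complex differed among themselves. *PDK4* (chr7:95583499-95596516), known as a gene of fasting and fat use, was at 2.7, 3.03 and 2.45 CPM in DMSO and 5.16, 5.68 and 4.77 CPM after DSF/Cu. Each treated library exceeded each DMSO library by more than 1.5-fold. The log2 change was 0.93 ± 0.16 (edgeR adjusted p = 0.0051), and it was called in all 14 alternatives that tested it, with adjusted p from 1.63e-07 to 0.0378. On the FPKM scale *PDK4* stayed low, at 0.535 ± 0.0582 in DMSO and 0.912 ± 0.081 after DSF/Cu.

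*PDK1*, the kinase gene best known for induction by low oxygen, was at 36.2, 37.1 and 35.7 CPM in DMSO and 34.1, 33.6 and 37.7 CPM after DSF/Cu. Its groups overlapped, and the interval of its log2 change ran from -0.22 to 0.13. *PDK2* was at 7.15 ± 1.06 and 6.36 ± 1.12 CPM (log2 change -0.17 ± 0.18). *PDK3* held 30 to 64 counts per library (log2 change -0.04 ± 0.37). Neither was called.

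As a share of the summed FPKM of the 4 kinase genes, which does not depend on library scaling, *PDK4* made up 12.8%, 15% and 12.9% in DMSO and 23.3%, 27% and 22.6% after DSF/Cu. The means were 13.6% ± 1.26 and 24.3% ± 2.33 (SD, n = 3), and the groups did not overlap (exact permutation test, two-sided p = 0.1, the smallest that 3 against 3 allows). *PDK1* remained the most abundant, with 55.8% ± 2.67 in DMSO and 50.3% ± 3.95 after DSF/Cu (exact permutation p = 0.2). *PDK2* made up 29.5% ± 3 and 24.4% ± 3.67 (exact permutation p = 0.3), and *PDK3* 1.14% ± 0.358 and 1.05% ± 0.182 (exact permutation p = 0.7). These 4 shares add up to the whole, so they are not independent of each other.

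**Figure D3:**
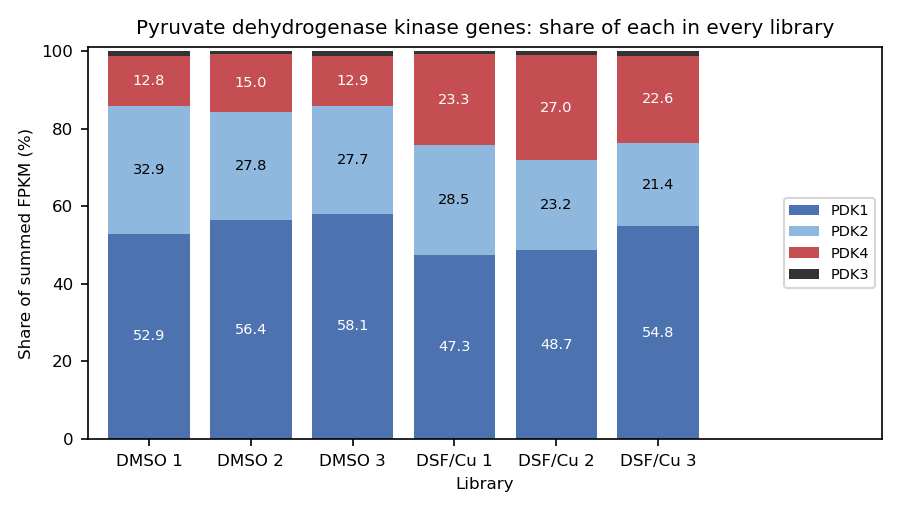
Share of each kinase gene in the summed FPKM of PDK1 to PDK4 (vertical axis, percent), 1 bar per library. The PDK4 segment (red) is 12.8% to 15% in the DMSO libraries and 22.6% to 27% in the DSF/Cu libraries.

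The phosphatase genes, whose products reactivate the complex, gave no call, and their repeats were uneven. *PDP1*, the calcium-stimulated catalytic subunit, was at 32.6, 33 and 57.7 CPM in DMSO and 71.5, 72.5 and 39.3 CPM after DSF/Cu, with a log2 change of 0.57 ± 0.31 (adjusted p = 0.21). *PDP2*, the other catalytic subunit, was at 14.4, 19 and 21.8 CPM in DMSO and 23.9, 2.3 and 7.77 CPM after DSF/Cu. Its DSF/Cu libraries differed 10.4-fold among themselves. *PDPR*, the regulatory subunit, was at 51.6, 47.4 and 43.2 CPM in DMSO and 53.3, 24.1 and 50.4 CPM after DSF/Cu, with only DSF/Cu replicate 2 low. The *PDP1* share of *PDP1* plus *PDP2* (FPKM) was 76.4% ± 3.89 in DMSO and 89.3% ± 8.16 after DSF/Cu (exact permutation, two-sided p = 0.1).

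By count, such unevenness was near the background. Among the 28 pathway genes with a mean of at least 10 CPM, 5 (*PDHX*, *PDP1*, *PDP2*, *PDPR* and *DLST*) had a highest library more than 1.5 times the lowest within a group. That is 17.9%, against 17.1% of all 9608 genes at that level. The library that stood apart was not the same for all 5 genes. It was DMSO replicate 1 for *PDHX* and DSF/Cu replicate 2 for *PDPR*, and *PDP2* too was lowest in DSF/Cu replicate 2. For *DLST* both DMSO replicate 2 and DSF/Cu replicate 3 stood apart, and for *PDP1* DMSO replicate 3 and DSF/Cu replicate 3.

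**Figure D4:**
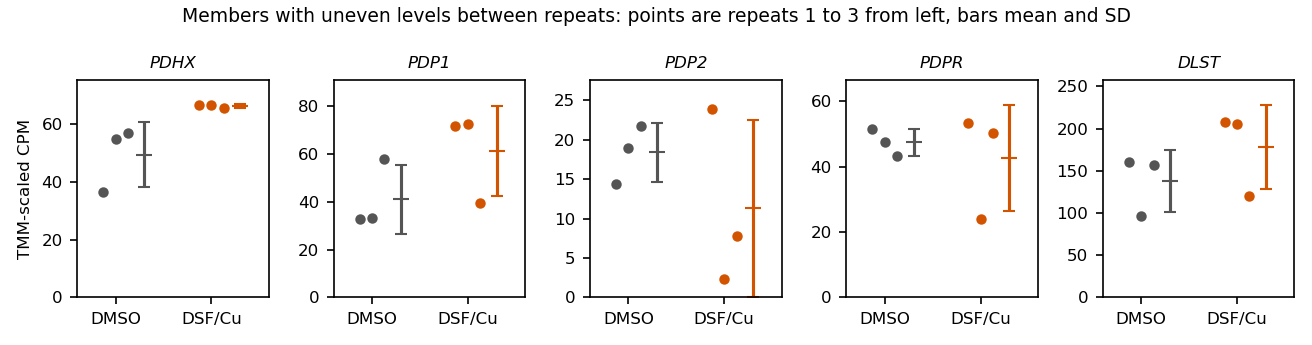
TMM-scaled CPM (vertical axes, from 0) in every library for the 5 genes of at least 10 CPM with uneven repeats. Points are repeats 1 to 3 and bars the mean and SD; PDP2 ranges from 2.3 to 23.9 within DSF/Cu, while PDHX is even there (65.5 to 66.7) and uneven in DMSO.

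Entry of carbon by other routes was also covered. *PC*, pyruvate carboxylase, which makes oxaloacetate, was at 25 ± 2.01 CPM in DMSO and 22.3 ± 3.22 CPM after DSF/Cu and was not called (adjusted p = 0.36). *GLUD1* (chr10:87050202-87094843), which turns glutamate into 2-oxoglutarate, was at 238.1, 251.1 and 243.9 CPM in DMSO and 212.7, 206.6 and 224.8 CPM after DSF/Cu. The treated libraries were all lower, by a log2 change of -0.19 ± 0.05 (adjusted p = 0.0334). It did not pass when DMSO replicate 2 (adjusted p = 0.101), DMSO replicate 3 (0.0784), DSF/Cu replicate 1 (0.0771) or else DSF/Cu replicate 2 (0.107) was left out. Its exons share 464 bases (13.2%) with the opposite-strand gene *SHLD2*, which held 3109 to 5619 counts.

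In the first leg of the cycle, from citrate to 2-oxoglutarate, 1 of 5 genes was raised (20%, against 18.5% of all genes tested). None was lowered, against 16.8% of all genes tested. *IDH3B* (chr20:2658395-2664219), a regulatory subunit of the NAD-dependent isocitrate dehydrogenase, was at 97.9, 91.1 and 96.1 CPM in DMSO and 148.7, 131.1 and 131.7 CPM after DSF/Cu. The treated libraries all lay well above the DMSO libraries. The log2 change was 0.53 ± 0.07 (edgeR adjusted p = 0.00188), and it was called in all 16 alternatives (adjusted p from 2.67e-13 to 0.0469).

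The other subunit genes of that enzyme did not rise with it. *IDH3A*, the catalytic subunit, was at 67.6, 56.7 and 61.5 CPM in DMSO and 50.9, 55.8 and 37.6 CPM after DSF/Cu (log2 change -0.37 ± 0.15, adjusted p = 0.113). *IDH3A* was called lower under total-count scaling (-0.553, adjusted p = 0.0269), by DESeq2 (0.0369) and by limma on FPKM of at least 1 (0.0252 and 0.0265 with pseudocounts of 1 and 0.1). *IDH3G*, the other regulatory subunit, was at 32.8 ± 1.94 and 32.7 ± 3.78 CPM, with an interval from -0.25 to 0.25. The FPKM ratio of *IDH3B* to *IDH3A*, which is free of library scaling, was 3.85, 4.28 and 4.16 in DMSO and 7.78, 6.25 and 9.34 after DSF/Cu, and that of *IDH3B* to *IDH3G* was 3.08 ± 0.204 and 4.46 ± 0.208. These ratios were chosen after the values were seen and carry no test.

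*CS*, citrate synthase, was at 211.9 ± 10.8 CPM in DMSO and 193.1 ± 5.91 CPM after DSF/Cu (log2 change -0.13 ± 0.06, adjusted p = 0.118). It was called lower under total-count scaling (-0.319, adjusted p = 0.00404) and by limma on FPKM. The limma adjusted p was 0.00423 and 0.0044 at FPKM of at least 1 (pseudocounts of 1 and 0.1) and 0.0335 without a filter. *IDH2*, the mitochondrial NADP-dependent isocitrate dehydrogenase, was at 14.1, 15 and 12.9 CPM in DMSO and 10.4, 12 and 8.55 CPM after DSF/Cu. Its log2 change of -0.44 ± 0.15 did not pass (adjusted p = 0.0597), but passed under total-count scaling (-0.63, adjusted p = 0.0156), by DESeq2 (0.012) and without DSF/Cu replicate 2 (0.0399). *IDH2* also passed by limma on FPKM of at least 1 (0.00955 and 0.0102 with pseudocounts of 1 and 0.1) and with the replicate number as a block (0.0477).

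Oxidation of 2-oxoglutarate to succinyl-CoA is the lipoyl-dependent step of the cycle. *OGDH* (chr7:44606572-44709066), its decarboxylase, was at 242.1, 177.4 and 210.7 CPM in DMSO and 153.1, 134.8 and 139.2 CPM after DSF/Cu. The DMSO libraries were spread, but all lay above the treated ones. The log2 change was -0.56 ± 0.12 (adjusted p = 0.0114), and no left-out library ended the call. *DLST*, the lipoylated succinyltransferase of the same complex, was at 161, 96.2 and 157.3 CPM in DMSO and 207.9, 205.4 and 120.5 CPM after DSF/Cu. Its groups overlapped (log2 change 0.36 ± 0.27, adjusted p = 0.352). The FPKM ratio of *OGDH* to *DLST* was 1.36 ± 0.226 in DMSO (1.31, 1.61 and 1.17) and 0.742 ± 0.235 after DSF/Cu (0.643, 0.573 and 1.01). Like the other ratios, it was chosen after the values were seen and carries no test. *DLST* was uneven within both groups.

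From succinyl-CoA to oxaloacetate, 3 of 6 genes were lowered (50%, against 16.8% of all genes tested). None was raised, against 18.5% of all genes tested. *FH* (chr1:241497603-241519761), which hydrates fumarate to malate, was at 153.6, 172.8 and 166.7 CPM in DMSO and 114.1, 114.9 and 112.6 CPM after DSF/Cu. The treated libraries were nearly equal and well below all DMSO libraries. The log2 change was -0.53 ± 0.06 with an adjusted p of 0.00103, the lowest among these genes, and it was called in all 16 alternatives (adjusted p from 2.48e-17 to 0.00844). *MDH2* (chr7:76048051-76067506) was at 303, 293.2 and 294 CPM in DMSO and 256.1, 274.4 and 245.2 CPM after DSF/Cu, a log2 change of -0.20 ± 0.06 (adjusted p = 0.0329). Leaving out any library but DSF/Cu replicate 2 ended that call (adjusted p from 0.0715 to 0.0938). *MDH1*, the cytosolic malate dehydrogenase, was at 113.2 ± 6.02 and 103.3 ± 4.36 CPM (log2 change -0.13 ± 0.06, adjusted p = 0.161). *MDH1* was called lower under total-count scaling (-0.317, adjusted p = 0.0113) and by limma on FPKM of at least 1 (0.0105 and 0.0109 with pseudocounts of 1 and 0.1).

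The succinyl-CoA ligase pairs a shared subunit, *SUCLG1*, with *SUCLA2* for the ATP-forming or *SUCLG2* for the GTP-forming enzyme. *SUCLG2* (chr3:67360460-67654610) was at 34.9, 36.7 and 38.7 CPM in DMSO and 26.1, 29.8 and 30.4 CPM after DSF/Cu, a log2 change of -0.35 ± 0.09 (adjusted p = 0.0219) without overlap between groups. It ended when DMSO replicate 2 (adjusted p = 0.0612) or DMSO replicate 3 (0.0699) was left out. *SUCLA2* was at 34.1 ± 3.11 and 37.1 ± 1.4 CPM (log2 change 0.12 ± 0.09) and *SUCLG1* at 71.9 ± 5.91 and 80.5 ± 4.47 CPM (0.16 ± 0.08), and neither was called. The *SUCLA2* share of *SUCLA2* plus *SUCLG2* (FPKM) was 23.3%, 24.7% and 24.8% in DMSO and 32%, 30.4% and 30.2% after DSF/Cu (exact permutation test, two-sided p = 0.1, the smallest possible). The treated shares all lay above the DMSO shares.

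In the glycine cleavage system, which also carries a lipoyl group, *GLDC*, the glycine decarboxylase, held 4 counts in DMSO replicate 2 and 0 counts in the other 5 libraries, too few to compare. *GCSH*, the lipoylated carrier protein, was at 16.4 ± 2.44 and 14.2 ± 1.97 CPM (log2 change -0.20 ± 0.15, adjusted p = 0.361).

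The branched-chain 2-oxoacid dehydrogenase, which degrades the keto acids of leucine, isoleucine and valine, had opposite changes in its decarboxylase subunit genes. *BCKDHA* (chr19:41397808-41425002) was at 4.46, 5.15 and 4.43 CPM in DMSO and 7.09, 6.67 and 6.03 CPM after DSF/Cu, a log2 change of 0.50 ± 0.14 (adjusted p = 0.0325). *BCKDHB* (chr6:80106647-80346254) was at 13.4, 15.3 and 18.5 CPM in DMSO and 9.43, 10.4 and 10.6 CPM after DSF/Cu, a log2 change of -0.63 ± 0.14 (adjusted p = 0.016). Neither gene's groups overlapped. The FPKM ratio of *BCKDHA* to *BCKDHB* was 0.601, 0.606 and 0.432 in DMSO and 1.36, 1.16 and 1.02 after DSF/Cu, and this ratio was likewise chosen after the values were seen. *DBT*, the lipoylated core, was at 40 ± 2.31 and 40.2 ± 2.47 CPM, with an interval from -0.18 to 0.2.

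The *BCKDHA* call was fragile. It was lost under total-count scaling (0.309, adjusted p = 0.116), and without DMSO replicate 1 (0.0955) or 3 (0.0966) and without DSF/Cu replicate 1 (0.0868) or 2 (0.079). Without DSF/Cu replicate 1 the *BCKDHB* call was lost too (adjusted p = 0.0543). Of *BCKDHA*'s exonic bases, 63.8% are shared with the same-strand gene *AC011462.1*, which held 0 to 17 counts, against 293 to 400 for *BCKDHA*.

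Other genes of these pathways were taken from lists set by role, 50 genes in all and all tested. Of these 3 were raised and 20 lowered (6% and 40%, against 18.5% and 16.8% of all genes tested), with a median log2 change of -0.317 against 0.002. Under total-count scaling 1 was raised and 29 lowered. The same count of 1 raised gene was found without DMSO replicate 1 or without DSF/Cu replicate 1. Among 9 genes that supply the lipoyl precursor or electrons to ferredoxin, 5 were lowered and none raised. *FDXR*, the reductase that passes electrons to FDX1, went from 6.47 ± 0.241 to 3.28 ± 0.136 CPM (log2 change -0.98 ± 0.13, adjusted p = 0.00177). *MECR*, the last enzyme of mitochondrial fatty acid synthesis, from which the octanoyl precursor comes, went from 14.4 ± 1.62 to 7.22 ± 1.33 CPM (-0.99 ± 0.17, adjusted p = 0.00525). *ACSF3*, which makes mitochondrial malonyl-CoA, was lowered by -0.60 ± 0.11 on the log2 scale, and *CBR4* by -0.63 ± 0.17. The *CBR4* call was lost without any 1 of the libraries except DSF/Cu replicate 3 (adjusted p from 0.051 to 0.0911). *NDUFAB1*, the acyl carrier protein, had a log2 change of 0.04 ± 0.08.

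Of 7 mitochondrial carriers of TCA intermediates, 6 were lowered and none was raised, against 16.8% and 18.5% of all genes tested, with a median log2 change of -0.792 against 0.002. The aspartate-glutamate carriers *SLC25A12* and *SLC25A13* had log2 changes of -0.79 ± 0.06 and -0.45 ± 0.07, the citrate carrier *SLC25A1* -0.90 ± 0.14 and the 2-oxoglutarate carrier *SLC25A11* -0.96 ± 0.15. *SLC25A12* fell from 55.7 ± 1.57 to 32.2 ± 1.29 CPM.

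Another list held 9 genes, of TCA enzymes, assembly factors and the cytosolic enzymes *ACO1* and *IDH1*. Of these 1 was raised (11.1%, against 18.5% of all genes tested) and none lowered (against 16.8%). *SDHAF2*, an assembly factor of succinate dehydrogenase, had a log2 change of 0.60 ± 0.16. It lost its call under total-count scaling (adjusted p = 0.0775) and in turn when DMSO replicate 1, DMSO replicate 3, DSF/Cu replicate 1 and DSF/Cu replicate 2 were left out (0.0805 to 0.0925). The 4 subunit genes *SDHA* to *SDHD* were not called, with log2 changes from -0.19 to 0.15. *SDHA* was called lower under total-count scaling (-0.248, adjusted p = 0.00756) and in every limma setting (adjusted p from 0.00822 to 0.0259). *SDHC* was called lower under total-count scaling (-0.368, adjusted p = 0.0348) and by limma on FPKM of at least 1 (0.0357 and 0.0371 with pseudocounts of 1 and 0.1). *ACO1*, *SDHAF1* and *SDHAF4* were also called lower under total-count scaling.

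Around pyruvate and malate, 1 of 8 genes was raised and 2 were lowered (12.5% and 25%, against 18.5% and 16.8% of all genes tested). *ME1*, the cytosolic malic enzyme, rose from 59.5 ± 2.59 to 122 ± 7.64 CPM (log2 change 1.04 ± 0.07, adjusted p = 0.000168), while mitochondrial *ME3* had a log2 change of -0.51 ± 0.10. *LDHA*, lactate dehydrogenase A, went from 1417 ± 63.4 to 1026 ± 37.3 CPM (-0.47 ± 0.05). Of 5 genes of glutamine and glutamate use, 1 was lowered (20%, against 16.8% of all genes tested) and none raised. The lowered gene, *ALDH18A1*, which starts proline synthesis, had a log2 change of -0.55 ± 0.06.

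Among 7 other genes of lipoyl-dependent enzymes and branched-chain amino acid breakdown, 1 was raised and 4 were lowered. These were 14.3% and 57.1%, against 18.5% and 16.8% of all genes tested. *BCKDK*, the kinase that switches off the branched-chain complex, had a log2 change of -0.78 ± 0.15 (from 68.9 ± 9.64 to 40.2 ± 5.91 CPM). *PPM1K*, the phosphatase that switches it on, was raised by 0.46 ± 0.11. The *PPM1K* call was lost under total-count scaling (0.276, adjusted p = 0.0923) and when any 1 of DMSO replicates 1 and 3 and DSF/Cu replicates 1 and 3 was left out (0.0572 to 0.062), and with the replicate number as a block (0.0616). *BCAT2*, the mitochondrial transaminase, was at -0.48 ± 0.06 and *DHTKD1*, a lipoyl-dependent dehydrogenase component of lysine breakdown, at -0.60 ± 0.11. *BCAT1*, also lowered (-0.28 ± 0.09, adjusted p = 0.0447), lost its call in several alternatives, among them without DMSO replicate 1 (0.121) or 2 (0.128). Of the mitochondrial sirtuin genes, *SIRT3* (-0.92 ± 0.14) and *SIRT5* (-0.51 ± 0.14) were lowered. The *SIRT5* call did not survive leaving out replicate 2 or replicate 3 of either group (adjusted p from 0.0677 to 0.0792), or the replicate block (0.0656). *SIRT4*, whose product can remove lipoyl groups, was near 0 (0.311 ± 0.231 CPM in DMSO; 0, 22 and 0 counts after DSF/Cu).

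**Figure D5:**
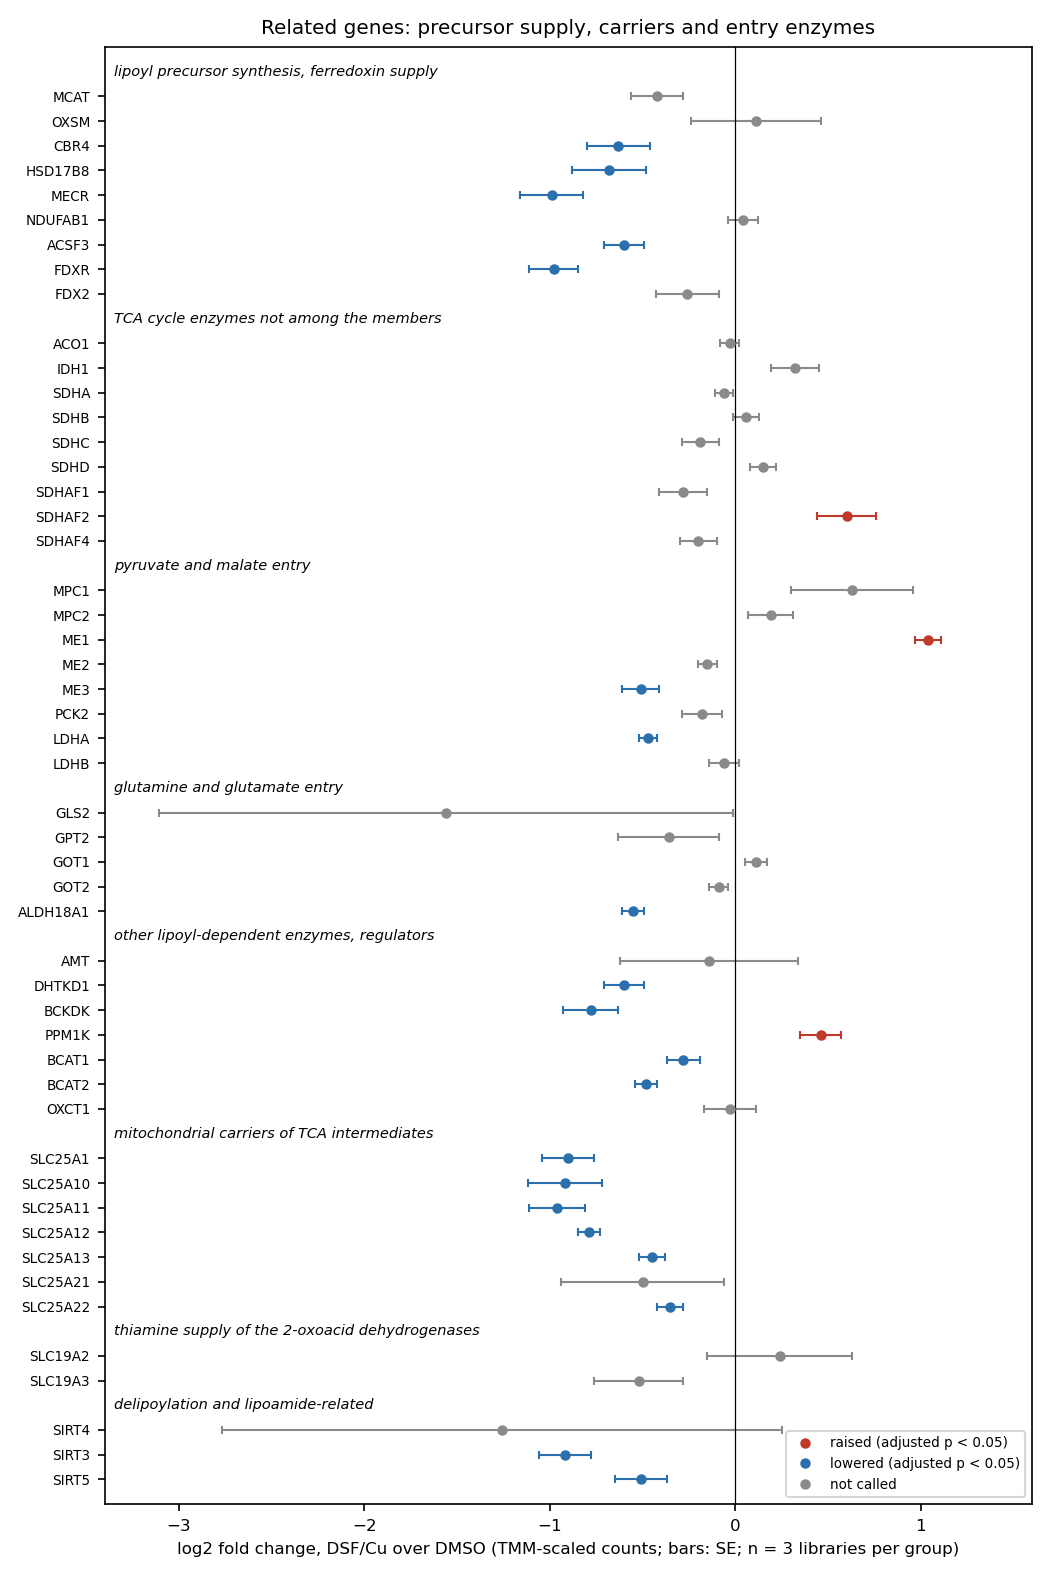
Log2 fold change of DSF/Cu over DMSO (horizontal axis, with SE, 3 libraries per group) for 50 related genes by list. Red genes were raised (3), blue genes lowered (20) and grey genes not called; 6 of the 7 mitochondrial carriers are blue, and ME1 is the highest red gene at 1.04.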

How the data were processed

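Poly(A) RNA of 6 MDA-MB-231 libraries (3 DMSO, 3 DSF/Cu) was sequenced as paired ends. The table's Control columns were matched to DMSO samples by replicate number. The authors deposited whole-number counts per gene without scaling, and FPKM values scaled by gene length and library size, per the file headers. Per the submitters' processing notes, the tools included StringTie 1.3.0, HISAT2 2.0 and Bowtie 0.12.2, beside a mouse build, mm8. The genes are human: all 36 overlap the gene of the same ID in GENCODE 29 (GRCh38), 15 with the same start and end. Which counter, strand setting and annotation were used is unknown here.

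Genes were kept by filterByExpr, scaled by TMM and tested with edgeR 4.0.16 (quasi-likelihood F test, two-sided, R 4.3.3). The standard error was derived from the log2 change and its F statistic, and the 95% interval uses the test's degrees of freedom. Adjusted p-values are over all genes tested. DESeq2 1.42.0 and limma 3.58.1 on log2 FPKM were alternatives. Libraries of a group differed by a chi-square of 50.2 to 64 per degree of freedom, so none is a copy.

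A few related genes are not reported here. The genes and lists were chosen with earlier results of these data known. The rule for named genes took *FDX1*, *LIAS*, *DLAT*, the kinases, every called gene, each gene below the filter, the rest within their role, and up to 4 called related genes per list by adjusted p.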

Additional observations from a re-analysis of the deposited data

How the results depend on the processing

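Each count was recomputed under 16 alternatives. The genes raised among the 36 numbered 2 to 4. Their share of calls was somewhat above that of all genes under total-count scaling (45.7% against 39.6%). It was also above without a count filter (25% against 19.5%) and with limma without a filter (19.4% against 6.77%). Without DSF/Cu replicate 2 it was nearly equal (28.6% against 27.8%), and it was at or below that of all genes in the other 12 settings. The 2 settings without a filter covered 29289 and 58825 genes in place of 18229. Many of those had few or no counts and could hardly be called, so these 2 all-gene shares are not comparable with the rest. The genes lowered numbered 14 under total-count scaling, 11 with the DESeq2 Wald test and 13 with limma on FPKM of at least 1 with either pseudocount (1 or 0.1), against 7. With single libraries left out they numbered 3 to 8: 3 without DMSO replicate 2 or DSF/Cu replicate 1 and 4 without DMSO replicate 3. Related genes raised numbered 1 under total-count scaling and in the 3 limma settings, and 1 to 3 with a library left out (1 without DMSO replicate 1 or DSF/Cu replicate 1), against 3. Over all genes, total-count scaling gave 4856 lowered (2356 raised), and limma on FPKM gave 1802 raised with a pseudocount of 1, 1803 with 0.1 and 1465 without a filter, against 3059 lowered and 3365 raised. Total-count scaling moved every change downward by its own construction. The limma settings used FPKM, which is likewise scaled by library size without TMM factors, so they are no separate check on scaling. At FPKM of at least 1 the median log2 change of all genes was -0.167 (pseudocount 1) and -0.2 (0.1), beside -0.182 under total-count scaling. For the other settings the cause was not tested. *PDK4*, *IDH3B* and *FH* kept their call in each alternative that tested them, and *OGDH* in all but limma without a filter (adjusted p = 0.0752). *PDK4* was below the FPKM filter in the 2 limma settings that had one. No called gene changed direction.

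With the replicate number as a block in edgeR, 2 of the 36 were raised and 6 lowered: *GLUD1* (adjusted p = 0.0735), *MDH2* (0.0641) and *BCKDHA* (0.0685) were not called, and *IDH2* was (0.0477). Among the related genes 3 were raised and 17 lowered: *PPM1K* (0.0616), *SIRT5* (0.0656), *HSD17B8* (0.0885) and *BCAT1* (0.0838) were not called, and *IDH1* was called raised (0.0271). Libraries of the same number deviated from their group means with correlations of 0.022, -0.002 and 0.047. DMSO replicates 1 and 3 correlated best with the DSF/Cu replicate of their own number, and DMSO replicate 2 with DSF/Cu replicate 1 (0.029). Correlations this small, from 3 libraries per group, cannot tell whether libraries of the same number were handled together. Counts were lowest for *GLDC* (0 to 4 per library), *LIPT2* (19 to 86) and *PDK3* (30 to 64).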

Other observations

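Pseudogenes named after the pathway genes were looked up, since reads can be split between a gene and a near-identical copy. The table held 22 of them, for 10 of the 36 genes, and 11 had no count in any library. Only *GCSHP5*, a copy of the glycine cleavage carrier gene *GCSH*, reached 100 counts. It held 333, 383 and 368 counts in DMSO and 160, 199 and 214 after DSF/Cu, or 5.22 ± 0.739 and 3.44 ± 0.605 TMM-scaled CPM (SD, n = 3). It was singled out after its values were seen. How reads were divided between *GCSH* and this copy was not tested. *DLSTP1* held 22 to 57 counts and *GLUD1P3* 25 to 64 counts, far below *DLST* and *GLUD1*, and *FDX1P1* at most 18.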
